A study of Mus musculus with 11 samples.

Results

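Mouse 3T3-L1 adipocytes that had been exposed to insulin, to tumour necrosis factor (TNF) or to dexamethasone were compared, as 1 class of treated cells, with untreated adipocytes. The 8 treated arrays of the 11 in the series entered the comparison, weighted as the mean of the 3 treatment means, against the 3 control arrays. Of 45101 probe sets, 34945 carried exactly 1 gene symbol, and after the brightest probe set was taken for each of 18193 genes and dim genes were left out, 15622 genes were tested. A gene was counted as shared by the treatments when every treated array lay above, or every treated array below, all 3 control arrays and the difference from control had a limma Benjamini-Hochberg adjusted p under 0.05. This held for 503 genes (3.22%), 226 higher and 277 lower. The rule does not ask that each treatment pass on its own: 37 of the 226 higher and 101 of the 277 lower genes did so in all 3 comparisons with control.

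3T3-L1 is a clonal line of mouse embryo fibroblasts that accumulates fat when differentiated in culture. In the chronic insulin group (CI, 2 arrays) adipocytes received 10 nM insulin in 4 additions over a day and the next morning. The TNF group (3 arrays) was kept for 4 days in TNF alpha at 2 ng/ml, and the DEX group (3 arrays) had 20 nM dexamethasone for 8 days, renewed every second day. Control (3 arrays) is labelled as having no treatment, and all cells were the same age after differentiation when harvested. The labels name 0.01% ethanol as the carrier control for dexamethasone, and it is not stated whether the control cells of these arrays received it. The labels present the treatments as models of insulin resistance, and the insulin response of the cells is not among the values analysed here. The arrays of a group are called experimental replicates, with no word on separate cultures, so the p-values rest on array-to-array spread that may be technical.

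In adipocytes, insulin binds its receptor, which phosphorylates insulin receptor substrates and activates AKT kinases. AKT signalling moves the glucose transporter GLUT4 to the cell surface, restrains lipolysis and promotes fat synthesis. Chronic insulin, inflammatory cytokines and glucocorticoids each blunt this response through different upstream routes: TNF through NF-kappaB and stress kinases, glucocorticoids through a nuclear receptor that binds DNA.

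The adipocyte markers Adipoq (20816 to 23388), Fabp4 (21646 to 23317) and Lpl (18159 to 20507) were near the top of the intensity range on every array, as was Cidec at 7862 to 14930. The leukocyte markers Ptprc (22.3 to 28.2) and Itgam (45.6 to 57.7), the endothelial marker Pecam1 (43.1 to 56.0) and the brown adipocyte marker Zic1 (10.6 to 14.2) averaged below the intensity of 51.8 under which genes were left out. Other markers of those cells were above it: of the leukocyte markers Adgre1 (90.1 to 117), Cd68 (68.0 to 114), Csf1r (343 to 505) and Cd3e (293 to 362), of the endothelial markers Cdh5 (53.0 to 65.1) and Kdr (290.4 to 348), and of the brown adipocyte markers Ucp1 (68.7 to 87.9), Prdm16 (86.6 to 109) and Cidea (79.1 to 189). Dlk1, a preadipocyte gene, was still bright at 4403 to 11252. Array medians ran from 124.5 to 129.5. With 2 or 3 arrays a group, array number sets the precision of the values. Of the total variance 48.2% lay on a principal component that set DEX apart, 32.2% on one with TNF at one extreme and CI at the other, and 7.63% on one that set control apart. The 18 hybridization spike probe sets were all lower in the treated mean than in control, with a median log2 difference of -0.11 (-0.23 in CI, -0.07 in TNF and -0.05 in DEX), and their part in the results was not tested.

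Fold changes below are differences of log2(intensity + 16), treated minus control, so they understate the change of dim genes. In all, 2056 genes passed the test of the treated mean against control (13.2%), of which 1077 were higher (6.89%) and 979 lower (6.27%). That count depended on single control arrays: it was 1367 without control replicate 1 and 1151 without control replicate 2. In 1553 of the 2056 the treated and control arrays overlapped. Separation of all 8 treated from all 3 control arrays, whatever the p, was found for 637 genes (4.08%), 301 above (1.93%) and 336 below (2.15%), and for 1107 and 1092 genes without control replicates 1 and 3. The 226 shared higher genes (1.45%) numbered 143 without control replicate 2, and the 277 shared lower genes (1.77%) numbered 251. The p and the separation come from the same arrays and do not support each other.

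Shared changes were small. Taken 1 treatment at a time, 88 of the 226 higher genes passed in CI, 152 in TNF and 182 in DEX, and of the 277 lower genes 141 passed in CI, 214 in TNF and 238 in DEX. Among the 503 genes the median log2 fold change was 0.22 for the higher and -0.28 for the lower genes, against 0.01 for all genes tested, and the median of the smallest change among CI, TNF and DEX was 0.14 and -0.17. Most shared genes were separated narrowly: the gap between the nearest treated and control arrays had a median of 0.04 log2 units for the higher and -0.05 for the lower genes. Among the genes that passed, and named here for their place at the limit, Myo1d lay just inside the rule, with 329.917 on the lowest treated array against 329.913 on the highest control array. Vps4b lay just outside it, at 2059 on its lowest treated array against 2060.1 on its highest control array. Mean control intensities had medians of 532 for the higher and 692 for the lower genes, against 334 for all genes. DEX gave the largest change of the 3 treatments for 103 of the higher and 148 of the lower genes, TNF for 70 and 88, and CI for 53 and 41. A moderated F test of equal effects of CI, TNF and DEX, which uses no control array in the difference, passed for 238 of the 503 genes (47.3%), close to the 7993 of all 15622 genes (51.2%). Only 7 genes (0.0448%) were shared and changed at least 1.5-fold in each treatment, 1 higher (0.0064%) and 6 lower (0.0384%).

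Lcn2 was the gene that rose 1.5-fold or more in each treatment. It encodes lipocalin-2, a secreted protein that binds iron-carrying siderophores and rises in inflammation. Lcn2 intensities were 474 and 590.1 in CI, 4091, 6606 and 2716 in TNF and 778, 1403 and 752 in DEX, against 113, 140.2 and 225 in control. Every treated array was well above the brightest control array, and the TNF arrays were the highest. The log2 fold change was 2.94 (SE 0.241, adjusted p = 1.70e-06), from 1.69 in CI, 4.63 in TNF and 2.49 in DEX.

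Tnfaip3, Bcl3, Trim47 and Ets2 were also among the 15 shared higher genes with the largest smallest change. Tnfaip3 encodes A20, a ubiquitin-editing enzyme that restrains NF-kappaB. It was at 393 and 359.9 in CI, 888, 872 and 666 in TNF and 642, 569 and 579 in DEX, against 346, 296 and 245 in control. TNF arrays were highest and CI arrays sat just above control, for a log2 fold change of 0.91 (SE 0.0953, adjusted p = 1.61e-05). Tnfaip3 did not pass in CI alone (adjusted p = 0.0803). Bcl3, an inhibitor-of-kappaB family member that acts with NF-kappaB in the nucleus, lay at 172 and 163 in CI, 321, 424 and 349.9 in TNF and 170.4, 148 and 176 in DEX, against 137, 129 and 119 in control. Here too the TNF arrays led, while CI and DEX arrays were close to each other, with log2 fold changes of 0.35 in CI, 1.39 in TNF and 0.32 in DEX. Trim47, a ubiquitin ligase, rose by 0.77 (SE 0.0688) on average, and more in TNF (0.89) and DEX (1.07) than in CI (0.34), with an adjusted p of 3.15e-05 for unequal effects (moderated F test). Ets2, a transcription factor downstream of growth factor signalling, rose by 0.62 (SE 0.118), and its 3 treatment changes, 0.51, 0.78 and 0.58, missed the threshold of the F test (adjusted p = 0.292).

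Angptl4 is a secreted inhibitor of lipoprotein lipase and a known target of both PPAR receptors and the glucocorticoid receptor. It was at 3511 and 3941 in CI, 4199.8, 4749.6 and 3564 in TNF and 4419, 3354 and 5119 in DEX, against 2783, 2920.5 and 3088 in control. All treated arrays lay above the control arrays, which were close together, and the log2 fold changes were 0.34 in CI, 0.50 in TNF and 0.53 in DEX (average 0.46, SE 0.105, adjusted p = 0.00908, and not past the threshold without control replicate 1). In CI alone Angptl4 did not pass (adjusted p = 0.113). The remaining higher genes of the 15 rose by 0.34 to 0.58. They were the scaffold protein Mpp6, Lrwd1, a protein of the origin recognition complex, Cdca8 (borealin, a chromosomal passenger protein), the pore-forming Gsdme, the exonuclease Eri1, the zinc finger gene Zfp180, Bola2, which takes part in iron-sulfur cluster delivery, Wdr3, a factor of small ribosomal subunit assembly, and Erdr1. Of the 15 genes 10 had more than 1 probe set, 8 of them more than 1 above the dim limit, and in 4 of these 8 every such probe set was separated the same way. Another Gsdme probe set gave 1.19 in CI, -0.11 in TNF and -0.37 in DEX. Gsdme did not pass in CI alone (adjusted p = 0.0922), nor on average without control replicate 1. Erdr1 lies in repeated sequence near the sex chromosome ends, so its probes may read copies and its value is uncertain.

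**Figure D1:**
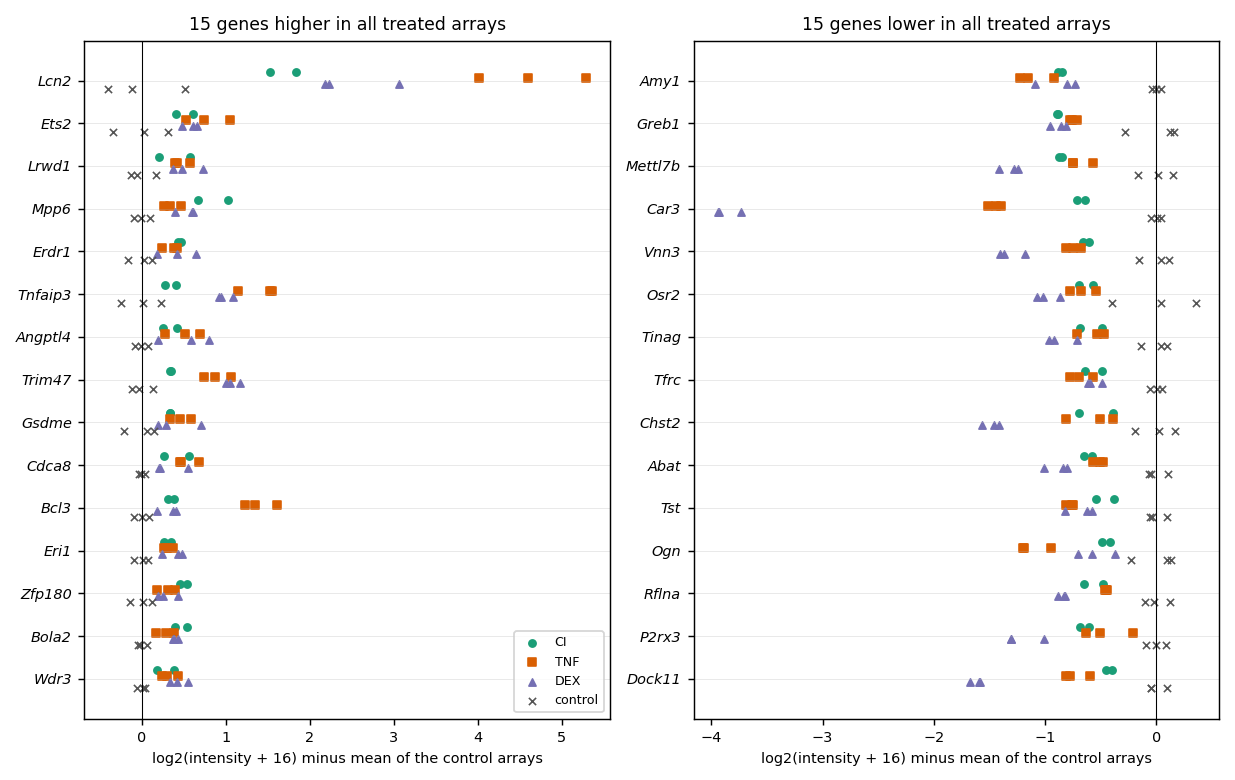
Each point is 1 array, as log2(intensity + 16) minus the mean of the 3 control arrays (x axis), for the 15 shared genes in each direction with the largest smallest change (y axis). CI, TNF and DEX points lie on the same side of every control point for all 30 genes, from a log2 fold change of 4.63 for Lcn2 in TNF to -3.87 for Car3 in DEX.

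Among the lower genes the 6 that fell at least 1.5-fold in each treatment were Amy1, Greb1, Mettl7b, Car3, Vnn3 and Osr2. Car3, a cytosolic carbonic anhydrase that is abundant in fat cells, fell furthest. Its intensities were 6257 and 6574 in CI, 3587, 3779 and 3882 in TNF and 653, 658 and 758 in DEX, against 10572, 10318 and 9927 in control. The treated groups did not overlap each other or control, and the log2 fold changes were -0.68 in CI, -1.45 in TNF and -3.87 in DEX (average -2.00, SE 0.0528, adjusted p = 8.69e-12). Amy1, an amylase, was at 435 and 424 in CI, 349.5, 331 and 412 in TNF and 366, 473 and 451 in DEX, against 776, 795 and 821 in control. The arrays of the 3 treatments lay close together: it changed by -0.87, -1.10 and -0.88 (average -0.95, SE 0.0740, adjusted p = 1.08e-06), and the F test between treatments missed the threshold (adjusted p = 0.0663). The mouse genome holds near-identical amylase genes, so the probe set may read more than 1 of them.

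Greb1, known as an oestrogen-induced gene in other tissues, was at 176 and 177 in CI, 192, 195 and 201 in TNF and 167, 186 and 181 in DEX, against 372, 278 and 380.4 in control. The treated arrays spanned a narrow range, and control replicate 2 was the lowest of the controls. The changes were -0.89 in CI, -0.75 in TNF and -0.88 in DEX, though another of its 4 probe sets gave 0.00 on average. Mettl7b, a methyltransferase found at lipid droplets and endoplasmic reticulum, had 872 and 886 in CI, 953, 1080.4 and 952 in TNF and 594, 674 and 656 in DEX, against 1625, 1438 and 1795 in control. DEX arrays were the lowest and the log2 fold change averaged -0.95 (SE 0.0656, adjusted p = 2.63e-07). Vnn3, of the vanin family of pantetheinases, changed by -0.63, -0.75 and -1.32 in CI, TNF and DEX, and the zinc finger factor Osr2 by -0.63, -0.67 and -0.99.

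Transferrin receptor, Tfrc, which takes up iron-loaded transferrin, stood at 2715 and 2428 in CI, 2339, 2211 and 2561 in TNF and 2518, 2477 and 2709 in DEX, against 3943, 3656 and 3822 in control. All treated arrays lay far below the lowest control array, and the treated groups overlapped each other. Its log2 fold changes were -0.56, -0.68 and -0.57 (average -0.60, SE 0.0554, adjusted p = 4.59e-06), and all 3 of its probe sets were separated. Tst, a mitochondrial thiosulfate sulfurtransferase, changed by -0.46, -0.77 and -0.68. Abat, the mitochondrial enzyme that degrades the transmitter GABA, changed by -0.61, -0.52 and -0.89, while its dimmer probe set gave 0.01. The ATP-gated channel P2rx3, the Cdc42 activator Dock11, the carbohydrate sulfotransferase Chst2, the basement membrane protein gene Tinag, the filamin-binding Rflna and the small proteoglycan gene Ogn made up the 15, with average changes of -0.62 to -0.92. Of the 15 lower genes 10 had more than 1 probe set, 8 of them more than 1 above the dim limit. In 3 of these 8 every such probe set was separated the same way, and in 5 some were not. Other probe sets averaged 0.06 and -0.03 for Chst2 and -0.14 for Dock11.

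The promoters of 4 of these genes are shown because Tnfaip3 and Lcn2 are known targets of NF-kappaB, while Vnn3 and Tfrc are lower genes of contrasting evenness. Each is the 300-base window from 250 bases before to 50 after the RefSeq start on GRCm38.p6, at chr10:19015361-19015660 (minus strand) for Tnfaip3, chr2:32387690-32387989 (minus) for Lcn2, chr10:23851212-23851511 (plus) for Vnn3 and chr16:32608646-32608945 (plus) for Tfrc. For Tnfaip3 and Tfrc 2 starts are listed and the first was used. Capitals mark matches, on either strand, to the NF-kappaB motif GGGNNTTTC, the glucocorticoid receptor half-site AGAACA, the E-box CACGTG, the sterol element TCACNCCAC or the TATA box TATAAA, none of which holds another.
Tnfaip3: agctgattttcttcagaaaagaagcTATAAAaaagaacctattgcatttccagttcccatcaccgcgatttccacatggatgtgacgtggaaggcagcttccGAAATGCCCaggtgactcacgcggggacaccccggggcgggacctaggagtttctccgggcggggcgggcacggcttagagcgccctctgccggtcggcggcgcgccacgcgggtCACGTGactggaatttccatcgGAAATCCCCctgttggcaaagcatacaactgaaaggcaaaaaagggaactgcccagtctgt
Lcn2: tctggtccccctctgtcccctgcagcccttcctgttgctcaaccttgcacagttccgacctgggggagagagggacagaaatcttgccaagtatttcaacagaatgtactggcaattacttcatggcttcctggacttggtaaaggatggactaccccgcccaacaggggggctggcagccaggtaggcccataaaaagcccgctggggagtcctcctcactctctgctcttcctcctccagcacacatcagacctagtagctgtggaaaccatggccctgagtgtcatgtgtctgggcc
Vnn3: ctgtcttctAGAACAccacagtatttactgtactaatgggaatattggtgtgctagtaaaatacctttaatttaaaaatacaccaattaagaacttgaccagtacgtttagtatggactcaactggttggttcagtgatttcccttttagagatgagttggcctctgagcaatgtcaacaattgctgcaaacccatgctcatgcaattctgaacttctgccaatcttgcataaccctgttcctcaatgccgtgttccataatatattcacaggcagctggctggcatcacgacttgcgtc
Tfrc: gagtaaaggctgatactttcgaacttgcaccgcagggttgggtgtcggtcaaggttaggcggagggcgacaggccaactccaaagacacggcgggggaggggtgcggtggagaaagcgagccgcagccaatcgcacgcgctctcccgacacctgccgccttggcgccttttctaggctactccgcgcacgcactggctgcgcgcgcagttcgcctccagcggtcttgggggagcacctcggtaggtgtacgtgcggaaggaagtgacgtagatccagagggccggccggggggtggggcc
The Tnfaip3 window held a TATA box, an E-box and, on the reverse strand, the NF-kappaB letters at 2 places, 1 of them just after the E-box. The half-site was found near the far end of the Vnn3 window, and none of the letters searched were in the Lcn2 and Tfrc windows. Among shared genes with a window, 11 of 181 higher genes (6.08%) and 12 of 203 lower genes (5.91%) held the NF-kappaB letters, against 543 of 12480 tested genes (4.35%). The letters were shortened after the values of a form with 1 more C at the end were seen, and that form was in 6 of the higher (3.31%) and 1 of the lower genes (0.493%), against 199 of all (1.59%). The half-site was in 21 of the 181 higher (11.6%) and 32 of the 203 lower genes (15.8%), against 13.6% of all. E-boxes were in 8.84% of the higher and 8.87% of the lower genes, against 9.33% of all, and TATA boxes in 4.97% and 8.37%, against 8.75%. The sterol element was in 1.10% and 1.48%, against 1.19%. A match describes letters only.

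The test above measures error between arrays of a treatment. When the 8 treated arrays were instead fitted as 1 group, so that the spread between treatments entered the error, 14 genes passed, all of them lower, and 1456 genes had an unadjusted p under 0.05 (4067 in the fit by treatment). All 14 were among the 503. Besides Amy1, Greb1, Tfrc, Tst, Abat and the proteoglycan gene Fmod, they were Prnp, Aoc3, Mknk2, Tlcd1, Pyroxd2, Fcgrt, Klhl2 and Kcnh3, which are named here because they passed this fit and so were chosen after their values were seen. The fit favours genes with little spread between treatments, so evenness among the 14 is not a separate result.

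Prnp, the prion protein gene, was at 12069.7 and 12276 in CI, 12794, 12894 and 13221 in TNF and 12449.5, 12048 and 12056 in DEX, against 15667, 15767 and 15657 in control. The 3 control arrays were close together and every treated array was below them, for log2 fold changes of -0.37 in CI, -0.28 in TNF and -0.37 in DEX. Aoc3 encodes a copper amine oxidase on the adipocyte surface. Its arrays were at 7275 and 7148 in CI, 7203, 7026 and 7277 in TNF and 7549, 7729 and 8139 in DEX, against 9524, 9176 and 9752 in control. DEX arrays were the closest to control, and the changes were -0.39, -0.40 and -0.28. Mknk2, a kinase that phosphorylates the cap-binding factor eIF4E, changed by -0.41, -0.41 and -0.46 (adjusted p = 0.775 for unequal effects), with 7184 and 6789 in CI, 7069, 6666 and 7197 in TNF and 6917, 6224 and 7186 in DEX, against 9708, 8878 and 9330.2 in control. Fcgrt, the neonatal Fc receptor that recycles IgG and albumin, changed by -0.33, -0.51 and -0.53, and the membrane protein gene Tlcd1 by -0.40, -0.41 and -0.49.

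**Figure D2:**
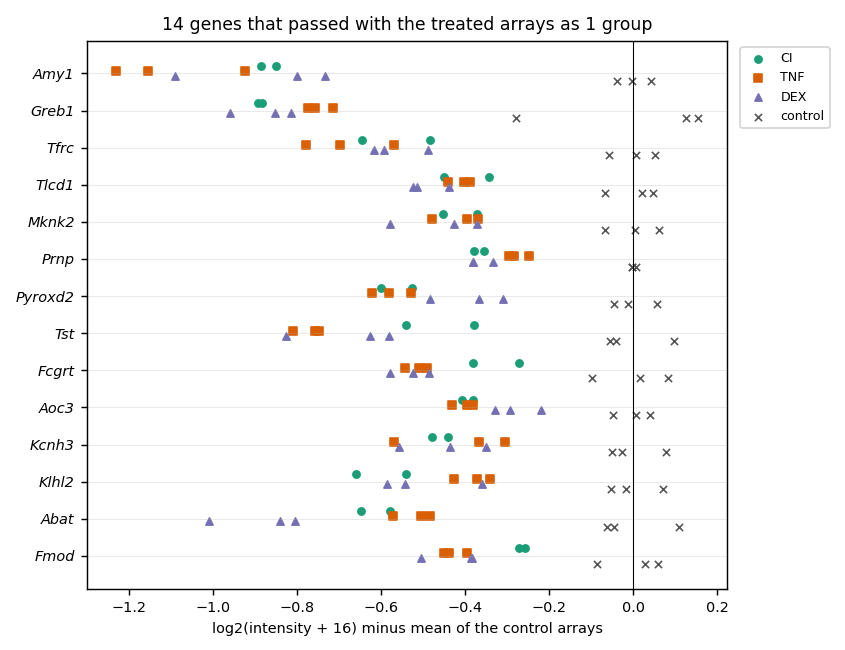
Each point is 1 array, as log2(intensity + 16) minus the control mean (x axis), for the 14 genes that passed when the CI, TNF and DEX arrays were fitted as 1 group (y axis). The CI, TNF and DEX points of Mknk2 and Tlcd1 overlap each other below the control points. For Prnp the TNF points, and for Aoc3 the DEX points, lie apart from the other treated points and nearest to control. The treated points of Abat spread from TNF at -0.52 to DEX at -0.89.

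Gene lists are given next, as members passed in each direction beside the share of all genes, 6.89% higher and 6.27% lower. Of all genes tested 3.22% were shared. The lists hold only a part of the 503 shared genes. The 3 treatment comparisons share the control arrays, so they are given side by side and their overlap is not read. Among all genes 1309 (8.38%) passed higher and 1387 (8.88%) lower in CI, 2173 (13.9%) and 1758 (11.3%) in TNF, and 2189 (14%) and 2127 (13.6%) in DEX.

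In the insulin pathway, 38 genes were tested, 7 passed higher and 5 lower, and 2 were shared, both lower. These were Slc2a4, which encodes the insulin-responsive transporter GLUT4, and Sort1, which encodes sortilin, a sorting receptor of GLUT4 vesicles. Slc2a4 was at 2292 and 2367 in CI, 1757, 1786 and 1658 in TNF and 1339, 1355 and 1669 in DEX, against 2722, 2380.2 and 2515 in control. The CI arrays lay just under the lowest control array and CI did not pass on its own (adjusted p = 0.405), and the log2 fold changes were -0.12 in CI, -0.54 in TNF and -0.80 in DEX (average -0.49, SE 0.0654, adjusted p = 0.000143). The dimmer Slc2a4 probe set gave 0.05 in CI. Sort1 was at 3144 and 3020.1 in CI, 2935, 2882 and 2904 in TNF and 3133, 3049 and 3231 in DEX, against 3799.5, 3659 and 3573 in control, and its changes of -0.25, -0.34 and -0.23 missed the threshold of the F test (adjusted p = 0.171). Its other probe sets gave 0.02 and 0.07 in CI, -0.51 and -0.52 in TNF and -0.24 and -0.36 in DEX, and neither was separated.

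Irs1, the substrate that couples the receptor to its kinases, fell by 0.49 on average (SE 0.0554, adjusted p = 3.43e-05), yet it was not separated, since TNF replicate 3 overlapped control. It stood at 3744 and 3506 in CI, 3895, 3789.5 and 4269.6 in TNF and 2305, 2069 and 2363 in DEX, against 4684, 4492 and 4261 in control. The DEX arrays were the lowest, with -0.99, while CI was at -0.30 and TNF at -0.17. Akt2, the main AKT kinase of insulin action in fat, fell by 0.29 (SE 0.0570), with -0.11, -0.22 and -0.55, and did not pass with DEX left out. For the receptor gene Insr the average was -0.04 (adjusted p = 0.695), from -0.42 in CI, 0.12 in TNF and 0.18 in DEX. Irs2 was at 0.08 (adjusted p = 0.289). Grb14, an adaptor that inhibits the receptor, rose by 0.45 on average (SE 0.0818, adjusted p = 0.00196), but its changes were 0.69 in CI, 1.27 in TNF and -0.62 in DEX. Socs3, another inhibitor, rose by 0.41, with 1.07 in TNF and -0.09 in CI. Without control replicate 2 or 3, 3 of the list passed higher.

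**Figure D3:**
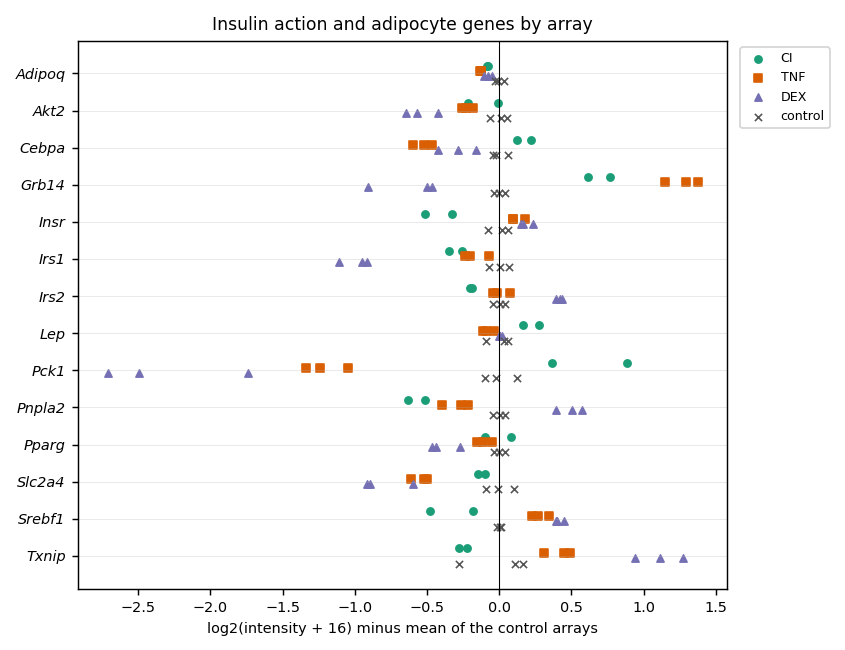
Each point is 1 array, as log2(intensity + 16) minus the control mean (x axis), for 14 genes of insulin action and adipocyte function (y axis). CI, TNF and DEX points of Slc2a4 all lie below the control points, while those of Grb14, Pck1 and Pnpla2 fall on both sides.

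Of 41 adipocyte genes, 18 passed lower and 6 higher, with a median log2 fold change of -0.13 (0.06 in CI, -0.29 in TNF and -0.08 in DEX). Their summed intensity was 263173 to 265611 in CI, 208758 to 213243 in TNF and 234589 to 252562 in DEX, against 260549 to 267352 in control. Angptl4 was shared higher, and Car3, Thrsp, Agpat2 and Dgat1 were shared lower (12.2% of the list, against 3.22% of all genes tested). Adiponectin, Adipoq, lay at -0.10 (adjusted p = 0.137) and the master regulator Pparg at -0.17 (adjusted p = 0.0536). Cebpa, its partner factor, fell by 0.22 on average, with 0.17 in CI, and did not pass without control replicate 1 or without control replicate 2. Pck1, which supplies glycerol phosphate for fat storage, differed in sign: it was at 1640.1 and 1139 in CI, 339.6, 418 and 364 in TNF and 144, 121 and 253 in DEX, against 962, 823 and 866 in control. CI arrays were above control and the others below, giving 0.62, -1.21 and -2.31 (average -0.97, SE 0.156). Pnpla2, the first lipase of triglyceride breakdown, averaged -0.13 (adjusted p = 0.143) from -0.57, -0.29 and 0.49.

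Fatty acid and triglyceride synthesis genes had the largest shared fraction of the lists: of 28 tested, 21 passed lower and 0 higher, and 8 were shared (28.6%), all lower. The median log2 fold change was -0.30, from -0.04 in CI, -0.39 in TNF and -0.44 in DEX. The shared members were Thrsp, Acss2, Elovl5, Agpat2, Slc25a1, Scd1, Dgat1 and Gpam. They span supply of carbon (the citrate carrier Slc25a1 and the acetyl-CoA synthetase Acss2), chain elongation and desaturation (Elovl5, Scd1) and assembly of triglyceride (Gpam, Agpat2, Dgat1). Thrsp, a nuclear and cytosolic protein that promotes lipogenesis, was at 6354 and 4849 in CI, 3585, 3872 and 3959 in TNF and 7117, 7984 and 8888 in DEX, against 9941, 9154 and 9987 in control. Its order differed from most, with TNF lowest (-1.35), then CI (-0.80) and DEX (-0.28). The other Thrsp probe sets, with averages of -0.91 and -0.03, were not separated. Acss2 stood at 2992 and 2569.7 in CI, 2082, 2200.2 and 2062 in TNF and 1181, 1027 and 1221 in DEX, against 3579, 3084 and 3290.1 in control, in the order CI (-0.25), TNF (-0.64) and DEX (-1.53). Slc25a1 was the more even, with -0.23, -0.38 and -0.26 and an F test adjusted p of 0.112. In CI alone neither Acss2 (adjusted p = 0.0575) nor Agpat2 (adjusted p = 0.0945) passed. The dimmer Dgat1 probe set averaged -0.05 and was not separated.

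The core enzymes of the same list fell on average but were not shared. Fatty acid synthase, Fasn, changed by -0.45 on average, with 0.07 in CI, -0.79 in TNF and -0.64 in DEX. Acly was at 0.24, -0.59 and -1.15, Acaca at 0.28, -0.47 and -0.54, and Dgat2 at 0.45, -0.81 and -0.68. Srebf1, which encodes a transcription factor for these genes, averaged 0.12 (adjusted p = 0.193) from -0.33, 0.28 and 0.41.

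Cholesterol synthesis genes passed more often still, 19 lower and 1 higher of 22, with a median of -0.56, yet 2 were shared (9.09%). The treatment medians were 0.04 in CI, -0.46 in TNF and -1.37 in DEX, and all 22 genes passed the F test. Hmgcs1, the synthase before the rate-limiting step, was at 6151 and 5735 in CI, 4609, 4385 and 5344 in TNF and 2232, 2240.3 and 2405 in DEX, against 6204, 6432 and 6589 in control. CI replicate 1 lay just under the lowest control array, CI did not pass on its own (adjusted p = 0.401), and the DEX arrays were far below it. No other Hmgcs1 probe set above the dim limit was separated, with averages of -0.66 to -0.78. The other shared gene was Insig1, the endoplasmic reticulum anchor of sterol sensing, with -0.50, -0.27 and -0.91. With DEX left out, 11 of the list passed lower.

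Branched-chain amino acid catabolism, which feeds leucine, isoleucine and valine carbon into fat cell metabolism, had 16 genes lower and 1 higher of 26, and 5 shared, all lower (19.2%). The median was -0.22, from -0.19 in CI, -0.41 in TNF and -0.06 in DEX. Of the 5, Ivd, Mccc1, Mccc2 and Auh encode enzymes or subunits of leucine breakdown, and Oxct1 acts on ketone bodies. Ivd, isovaleryl-CoA dehydrogenase, was at 3115 and 3204 in CI, 2488, 2585 and 2576 in TNF and 3016, 3205 and 3254 in DEX, against 4116, 3842 and 4148 in control. TNF arrays were the lowest, and the changes were -0.35, -0.66 and -0.35 (average -0.45, SE 0.0447, adjusted p = 9.13e-06). The dimmer Ivd probe set, at -0.06 in CI and -0.44 on average, was not separated. Auh, which hydrates the methylglutaconyl intermediate, changed by -0.35, -0.47 and -0.22. No other Auh probe set above the dim limit was separated, with averages of -0.16 to 0.00. Mccc1 changed by -0.11, -0.65 and -0.29, and Mccc2, which did not pass when all its probe sets were averaged, by -0.20, -0.36 and -0.15. In CI alone neither Mccc1 (adjusted p = 0.207) nor Mccc2 (adjusted p = 0.0523) passed. Their other probe sets above the dim limit were not separated. With TNF left out, 10 of the 26 passed lower.

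In the lists of mitochondrial genes the shared fraction was near or under the 3.22% of all genes tested. Of 31 genes of the tricarboxylic acid cycle and pyruvate entry 5 passed lower, 1 higher and 1 was shared (Mdh1, at -0.03 in CI with an adjusted p of 0.781), of 67 respiratory chain genes 2 passed lower, 1 higher and 0 were shared, and of 12 coenzyme Q genes 1 passed lower. Their medians were -0.06, -0.05 and -0.04. In TNF alone 24, 50 and 10 of these genes passed lower, against 2, 4 and 2 in CI and 1, 2 and 2 in DEX. In fatty acid oxidation Acads, short-chain acyl-CoA dehydrogenase, was the shared gene, with -0.11, -0.48 and -0.26.

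NF-kappaB targets and other inflammatory genes had 22 members higher and 2 lower of 36 (median 0.42), and 5 shared (13.9%). Lcn2, Tnfaip3, Serpina3n and Cxcl1 were shared higher and Orm1 lower. The treatment medians were -0.05 in CI, 1.05 in TNF and -0.04 in DEX, and with TNF left out 5 passed higher. Of 15 macrophage and leukocyte markers 2 passed higher and 3 lower, and their summed intensity was 5268 to 5652 in CI, 8125 to 8517 in TNF and 4660 to 5092 in DEX, against 5925 to 6188 in control. The sum of the preadipocyte and fibroblast markers, given with the matrix genes, was also highest in TNF, and the part of either in the inflammatory result was not tested. Serpina3n, an acute-phase protease inhibitor, stood at 482 and 401 in CI, 651, 898 and 545 in TNF and 922, 858 and 835 in DEX, against 370.1, 361 and 361 in control. CI replicate 2 was the nearest to control, and the changes were 0.26, 0.88 and 1.22. Orm1, an acute-phase glycoprotein made by fat cells, was at 6705 and 6898 in CI, 3876, 4287 and 3692 in TNF and 3176, 3629 and 4031 in DEX, against 7591, 7076 and 7004 in control, lower in TNF and DEX than in CI, with an average change of -0.65. In CI alone neither Serpina3n (adjusted p = 0.241) nor Orm1 (adjusted p = 0.587) passed. Saa3, serum amyloid A3, had the second-highest average of all genes, 2.13 (SE 0.147), but was not shared: it was at 415 and 409 in CI, 18293, 19250.4 and 17006 in TNF and 621, 576 and 1139.9 in DEX, against 372, 368 and 458 in control. Only the TNF arrays were far from control, at 5.46, against 0.05 in CI and 0.87 in DEX, and it did not pass with TNF left out.

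Interferon response and antigen presentation genes passed lower in 24 and higher in 1 of 36, and 0 were shared. All 36 fell in DEX (median -1.45), whereas 0 passed lower in CI (median 0.21) and 2 in TNF (median 0.08), and 0 passed lower in the average with DEX left out. Glucocorticoid receptor targets had 18 higher and 3 lower of 30 (median 0.41), with medians of -0.09 in CI, -0.06 in TNF and 1.02 in DEX. Their 4 shared members were Lcn2, Serpina3n, Angptl4 and the lower gene Cyb561, a cytochrome of ascorbate electron transfer (-0.39, -0.81 and -0.49), and the first 2 also stand among the NF-kappaB targets. Ddit4, an inhibitor of mTORC1 that responds to stress and glucocorticoids, rose by 0.99 on average, with 1.02, 0.52 and 1.44.

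Matrix genes fell in 18 of 46 and rose in 3, with 4 shared, all lower. The 4, Lum, Dpt, Ogn and Fmod, encode small matrix proteins that bind collagen fibres, and 3 of them (Lum, Ogn and Fmod) are leucine-rich proteoglycans. Lum (lumican) was at 1397 and 1291 in CI, 1116, 1133 and 1346 in TNF and 188, 226 and 199 in DEX, against 1944, 1752 and 1425 in control. Control replicate 3 was close to the CI arrays, while the DEX arrays were far below, and the changes were -0.33, -0.50 and -2.96. Dpt (dermatopontin) changed by -0.42, -1.17 and -2.65, Ogn by -0.45, -1.11 and -0.55, and Fmod by -0.26, -0.43 and -0.42. Other Fmod probe sets above the dim limit were not separated, with averages of -0.19 to -0.08 and TNF changes of -0.09 to 0.02. The collagen gene Col1a1 was not shared, and was at -0.09, -0.21 and -1.36. In the whole list 5 genes passed higher and 13 lower in CI, 18 and 11 in TNF, and 3 and 29 in DEX. Of 19 preadipocyte and fibroblast markers 5 passed lower and 2 higher (median 0.08), with Wnt5a and Thy1 shared lower, and Cd34 was below the dim limit. Their summed intensity was 32601 to 32707 in CI, 46445 to 49883 in TNF and 33974 to 37624 in DEX, against 37450 to 41470 in control, and its part in the matrix result was not tested.

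Smaller shared sets lay in other lists. Of 34 genes of amino acid stress and transport 12 passed higher, 1 lower and 3 were shared: the tRNA synthetases Iars (0.30, 0.26 and 0.16) and Nars (0.22, 0.30 and 0.13), and the mitochondrial serine hydroxymethyltransferase Shmt2 (0.11, 0.28 and 0.20). The count of 12 was 4 without control replicate 2 and 7 without CI replicate 2. The medians of that list were 0.29 in CI, 0.06 in TNF and 0.04 in DEX. By treatment, 21 of its genes passed higher and 0 lower in CI, 8 and 2 in TNF, and 7 and 3 in DEX. In glycolysis and hypoxia 11 of 25 passed higher and 0 lower, with the collagen prolyl hydroxylase P4ha2 shared (0.28, 1.07 and 0.32), and 7 passed without control replicate 2. The list was highest in CI, with medians of 0.39 in CI, 0.05 in TNF and -0.05 in DEX. In CI 16 of its genes passed higher and 2 lower, in TNF 11 and 5, and in DEX 5 and 5. Of 34 cell cycle genes 14 passed higher and 2 lower, and the medians were 0.00 in CI, 0.28 in TNF and 0.17 in DEX. In CI 4 of them passed higher and 2 lower, in TNF 21 and 3, and in DEX 15 and 3. Shared were the mitotic kinases Bub1 (0.22, 0.41 and 0.27), whose control mean of 42.4 lay under the dim limit so that it was tested because of its treated arrays, and Aurkb (0.21, 0.23 and 0.21), thymidine kinase Tk1 (0.17, 0.20 and 0.33) and, lower, cyclin D2, Ccnd2 (-0.12, -0.13 and -0.38). That count of 14 fell to 7 to 9 without control replicate 1, 2 or 3, CI replicate 1 or TNF replicate 2, and Aurkb did not pass without control replicate 1 or 3. Of 35 lysosomal genes 5 passed higher and 3 lower, with medians of -0.11 in CI, 0.11 in TNF and -0.08 in DEX. The cholesterol exporter Npc1 (0.15, 0.43 and 0.34), the membrane protein Scarb2 (0.42, 0.07 and 0.17) and the proton pump subunit Atp6v1b2 (0.20, 0.19 and 0.14) were shared. Npc1 did not pass in CI alone (adjusted p = 0.163), nor Scarb2 in TNF alone (adjusted p = 0.392). The dimmer Scarb2 probe set gave -0.27 in CI and was not separated. Lists of endoplasmic reticulum stress (26 tested), FOXO targets (31), ERK feedback (35), leukocyte markers (15), brown adipocyte markers (14) and endothelial markers (5) held 0 shared genes. At the 3.22% of all genes that were shared, lists this small would hold few or 0, so this is not read as a result.

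**Figure D4:**
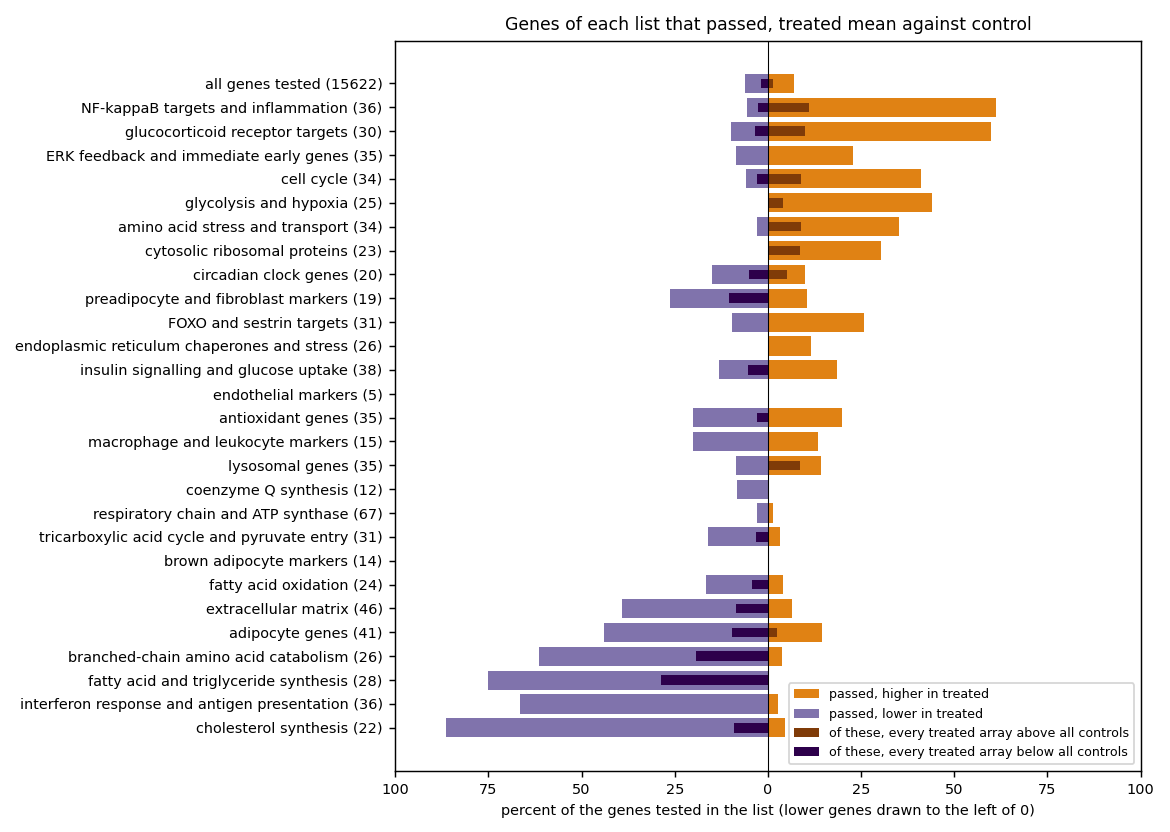
Bars give the percent of tested genes of each list (number in brackets, y axis) that passed higher (right) or lower (left) in the treated mean, and inner bars the percent that were also separated from control on every array. Cholesterol synthesis and interferon genes reach far to the left, with 9.09% and 0% shared. Of fatty acid and triglyceride synthesis genes 28.6% were shared, against 3.22% of all genes tested.

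The genes with the largest averages differed in how many treatments they changed in. The 5 highest were Lcn2 (2.94), Saa3 (2.13), Aldh1a1 (1.81), Fam107a (1.67) and Cpm (1.59), and of these only Lcn2 was shared. Aldh1a1, which makes retinoic acid from retinaldehyde, was at 89.4 and 78.1 in CI, 281, 298 and 247 in TNF and 2207, 1948 and 2021 in DEX, against 98.3, 107 and 83.2 in control. DEX arrays were highest and TNF arrays intermediate, while CI arrays overlapped control, for -0.16, 1.38 and 4.21. Fam107a (-0.46, -0.07 and 5.54) and the carboxypeptidase Cpm (-0.10, 0.02 and 4.85) were far above control in DEX, and neither passed with DEX left out. Cpm averaged 29.9 in CI, 33.9 in TNF and 1409 in DEX, against 33.3 in control, so it was over the dim limit, and was tested, only because of DEX. The 5 lowest were Car3 (-2.00), Dpt (-1.41), Lum (-1.26), Lrrc17 (-1.24) and the angiotensin receptor Agtr2 (-1.11). Lrrc17 changed by -0.29, -1.56 and -1.88, and Agtr2 by -0.59, -0.18 and -2.56, and neither was separated on every array.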

How the data were processed

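The values are linear intensity values of 11 Affymetrix arrays as the authors deposited them, per the labels made from biotin-labelled cRNA of 3 ug total RNA. The steps of background correction, summarisation and normalization are not given in the sources used here, and 0 value columns belonged to no sample. Deposited intensities ran from 6.01 to 25933. On the log2 scale the quartiles of any pair of arrays lay within 0.0765, under the limit of 0.1, so nothing further was normalized. Arrays of a group correlated at 0.9963 to 0.9980 (Spearman) and shared 9 to 30 identical values, so none was a copy.

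Affymetrix's 64 control probe sets were dropped. The platform annotation gave 1 symbol for 34945 probe sets, several for 932 and none for 9160. A gene identifier linked 34741 of the 34945 to current names, and 0 symbols were updated. For each of 18193 genes (9010 with several probe sets) the one with the highest mean was used, and genes averaging less than the 25th percentile of probe sets (51.8) were dropped. The pseudocount was 16.

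Groups came from the sample titles. All 11 arrays entered 1 limma fit (version 3.58.1, R 4.3.3, eBayes, two-sided, 7 residual and 7.59 prior degrees of freedom) with a mean per group. The contrasts were (CI + TNF + DEX)/3 minus control, each treatment minus control and a moderated F test of CI = TNF = DEX, each with Benjamini-Hochberg adjustment over 15622 genes at 0.05. The median standard error of the average was 0.0530 log2 units. Steps were tested on simulated data. SE is the standard error from that fit.

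Correlations of the deviations of same-numbered arrays were mixed, from -0.287 to 0.341 and over 0.1 in 6 of 15 array pairs. Since pairing required all to be over 0.1, the numbers were not taken as pairs. Alternatives were another pseudocount, dim filter, scaling, probe set rule, weighting, replicate block, eBayes setting, and leaving out a treatment or an array.

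The text names the 15 genes in each direction with the largest smallest change over the 3 treatments among shared genes, up to 4 shared members of each of 28 lists (891 entries, 834 symbols) with the smallest adjusted p and defining members of a pathway described, the 5 highest and 5 lowest averages, the 6 genes with the widest gap between treatments that passed in opposite directions, and 14 insulin sensitivity genes. The comparison, lists and rules were chosen with earlier results of these data known. Promoters were read from RefSeq windows (GRCm38.p6). Some genes are not analysed here.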

Additional observations from a re-analysis of the deposited data

Results flagged for a closer look

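The treatments moved 6 genes furthest apart among those that passed against control in opposite directions, by the test of unequal effects (moderated F test, adjusted p of 1.60e-11 for Cxcl5, 2.10e-10 for Cfb and smaller for the others). The range between the 3 log2 fold changes was 6.004 for Fam107a, 5.55 for the chemokine Cxcl5, 5.20 for the apolipoprotein Apoc3, 4.67 for the cytochrome Cyp2e1, 4.39 for complement factor B (Cfb) and 4.17 for the chemokine Ccl5. Cxcl5 was at 383 and 379 in CI, 3840.3, 4844 and 2866 in TNF and 77.8, 65.9 and 52.1 in DEX, against 533, 670.4 and 402 in control. TNF arrays were above, CI arrays below and DEX arrays far below control, and the average of -0.13 (adjusted p = 0.647) described none of them. Cfb was at 698 and 749 in CI, 9514, 9961 and 8293 in TNF and 418, 287 and 643 in DEX, against 1159, 997 and 923 in control, with changes of -0.49 in CI, 3.16 in TNF and -1.23 in DEX. Ccl5 changed by -0.37, 3.58 and -0.59. Apoc3 changed by -0.21, -0.34 and 4.86, high in DEX and slightly below control elsewhere. Cyp2e1 changed by -0.63, -1.28 and 3.39.

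Probe sets without a gene symbol did not enter the comparison. Of 5221 above the dim limit, 124 (2.38%) had every treated array beyond every control array, 31 higher and 93 lower, against 996 of 27824 probe sets with 1 symbol (3.58%). No group had 4 or more arrays, so single arrays were not tested as outliers.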

How the results depend on the processing

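The number of shared genes, 503, was 442 to 695 under another pseudocount, dim filter, scaling, probe set rule, weighting or eBayes setting, and 394 to 607 when single arrays were left out. The genes were less stable than the count: 317, 340 and 358 of the 503 were shared without control replicates 2, 1 and 3, and 339 when all probe sets of a gene were averaged. Fitting the treated arrays as 1 group gave 14 genes by both measures. Leaving out CI gave 3765 genes past the test, 2420 separated and 2072 shared, leaving out TNF gave 1819 separated and 1171 shared, and leaving out DEX gave 1699 separated and 942 shared, in part because fewer arrays had to be separated. With every probe set on its own, 996 were separated and 13084 differed between treatments. Leaving out 1 array gave 1151 to 2123 genes past the test, 702 to 1107 separated and 7050 to 8008 different between treatments. With the replicate block 480 genes were shared, 474 of them the same, and 2071 passed. ERK feedback genes passing higher numbered 14 with the replicate block, against 8 without it, and of the genes named 82 passed with the block. Signs turned with DEX left out for Fam107a (-0.27), Cpm (-0.041), Apoc3 (-0.27), Cyp2e1 (-0.96) and Cxcl5 (1.18), with TNF left out for Cfb (-0.86) and Ccl5 (-0.48), and with CI left out for Insr (0.15). Averages that missed the threshold also crossed 0 for Irs2 (-0.094) and Srebf1 (-0.027) with DEX left out, for Pnpla2 (0.098) and Lep (-0.036) with CI left out, and for Cxcl5 and Insr under other settings. Of 93 named genes 84 passed, and 60 passed under every alternative other than the 1-group fit. Besides those named above, Csnk1d, Rpl6, Tef, Shmt2, Scarb2 and Atp6v1b2 lost their call without some single arrays, and the causes were not tested. Dim genes are limited by signal over background.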

Other observations

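Shared genes of the smallest lists were few. Among cytosolic ribosomal protein genes 7 of 23 passed higher and 0 lower, with Rpl8 (0.14 in CI, 0.25 in TNF and 0.28 in DEX) and Rpl6 (0.10, 0.17 and 0.14) shared, and 3 or 4 passed without any 1 of the control arrays. Among 20 circadian clock genes 2 passed higher and 3 lower. The kinase Csnk1d (0.12, 0.25 and 0.19) and the transcription factor Tef (-0.03, -0.12 and -0.36) were shared by their brightest probe sets. The other 2 Tef probe sets gave 0.18 and 0.23 in CI and averages of -0.02 and 0.00, and of the other 4 Csnk1d probe sets none was separated and 1 averaged -0.14. In the antioxidant list 7 of 35 passed in each direction, and the glutathione transferase Gsta4 was shared lower, at 3434 and 3406 in CI, 3118, 3144 and 3467 in TNF and 2732, 3079 and 2882 in DEX, against 3866, 3804 and 4083 in control. Txnip, which inhibits thioredoxin and glucose uptake, rose by 0.42 on average but was at -0.25 in CI, 0.42 in TNF and 1.11 in DEX, and it did not pass with DEX left out. Leptin, Lep, was dim on every array (52.4 to 73.7) and did not pass (adjusted p = 0.557).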
